A study of Mus musculus with 2 samples.

Results

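The 10 genes described here, all of the contractile apparatus, were followed from muscle to fibroblasts in sorted stromal cells of the mouse colon. They were Acta2, Actg2, Myh11, Myl9, Mylk, Tpm2, Tagln, Cnn1, Des and Casq2, taken by symbol, and all 10 had a row among the 33696 features of both libraries. Mice carrying Pdgfra-cre on floxed Il10ra alleles (Il10ra_ff_Pdgfra_cre, the Cre library) were set against mice with the floxed alleles alone (Il10ra_ff, the control library). Both genotypes thus share the floxed Il10ra alleles, and only the Cre mice carry the recombinase, which the Pdgfra promoter drives in fibroblasts and related stromal cells. Each genotype gave 1 library, for which the design counts 2 mice aged 6 months per genotype, so no mouse can be told from another. The title of the series asks what IL-10 and its receptor do in fibroblasts of the large intestine and names type I interferon signalling. Cells had been sorted alive as Podoplanin-positive and negative for CD45, CD31 and EpCAM, and only muscle cells that pass this sort are in the libraries.

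Smooth muscle contracts when calcium, released from the sarcoplasmic reticulum or entering through the membrane, activates myosin light chain kinase, and phosphorylated myosin then pulls on actin filaments. Tropomyosin, calponin and transgelin bind those filaments, and desmin links them into a network. In the colon the same genes serve the muscle layers, the thin muscularis mucosae and, to a lesser degree, subepithelial myofibroblasts that lie under the crypts and are usually recognised by Acta2. Many of these genes carry a CArG box in their control regions, the site bound by serum response factor, whose coactivator myocardin drives the smooth muscle programme.

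The Cre library held 8627 barcodes and 66845139 UMIs (median 7332 per barcode), and the control library 11380 barcodes and 76570611 UMIs (median 6505). After filters 8302 Cre and 10657 control cells remained, and 115 barcodes occurred in both libraries. Il10ra (ENSMUSG00000032089) had 10 UMIs in the Cre and 2 UMIs in the control library, so its counts do not check the deletion. With 1 library per genotype there is no replicate check and no test. Intervals given below are at 95% and cover counting error only, a ratio is the Cre over the control library, and a difference of at least 1.5-fold is called higher or lower. Levels are in CPM, the gene's UMIs scaled by all UMIs of the summed cells of a class, and a gene counts as measured at a mean of at least 10 CPM over both libraries or both classes compared.

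The cell classes were built without the 10 genes. Cells were clustered with these genes and 47 other contractile genes left out, and fibroblast-like cells were then gated one by one on markers that hold none of them. The larger cluster with the contractile genes (175 Cre and 687 control cells) was led by Hhip, Tinagl1, Cpe, Dmd and Itga8. It met the naming rule for no cell type, because Kcnmb1 alone of 16 smooth muscle markers stood among its top 30 genes. Of those 16 markers 11 reached 10 CPM in the Cre and 12 in the control library, among them Mustn1 at 1082 and 1009 CPM and Pdlim3 at 1013 and 1184 CPM. Pcp4, P2rx1 and the muscarinic receptors Chrm2 and Chrm3 had 0 UMIs in both. Of 7 pericyte and vascular muscle markers, Notch3 had 0 and 1 UMI, while Rgs5 was at 551 and 328 CPM and the 7 summed to 631 and 422 CPM. The cells are called Hhip-high cells here and stand in for muscle, a choice made after values were seen. Pdgfra, whose promoter drives the Cre, was at 25.3 CPM in them in the Cre and 13.5 CPM in the control library, against 1254 and 948 CPM in subepithelial-gated cells. Podoplanin (Pdpn) was at 78.4 and 49.6 CPM in Hhip-high cells and at 328 and 271 CPM in subepithelial-gated cells.

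Gated fibroblasts numbered 497 Cre and 1435 control cells for the subepithelial gate (Sox6, Bmp3, Bmp5, Bmp7, Wnt5a and F3), 1962 and 2497 for lamina propria (Edil3, Adamdec1, Frmpd4, Col6a5 and Tnc), and 3410 and 4332 for adventitial fibroblasts (Pi16, Dpp4, Cd55, Sema3c, Ackr3 and Anxa3). Submucosal and trophocyte markers (such as Grem1, Ackr4 and Rspo3) gated 832 and 208 cells, and interstitial PDGFRA cell markers (such as Kcnn3) gated 432 and 292. Different clusters held most lamina propria-gated cells of each library, cluster 0 in the Cre library (73.9%) and clusters 1, 2 and 8 in the control library (28.8%, 40.1% and 16.9%). Cluster 4 held 90.7% of the Cre and 79.9% of the control subepithelial-gated cells. Adventitial-gated cells were spread over many clusters, led by cluster 5 in the Cre library (28.5%) and cluster 6 in the control library (25.1%). Cluster 13, led by Kcnn3, held 44.7% of the Cre and 36.6% of the control interstitial PDGFRA-gated cells. Cluster 9, led by Ptn and Myoc, held 31.25% and 16.1% of them.

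The promoters are shown because the 10 genes did not fall together from muscle to fibroblasts, and the sites bound by serum response factor are one feature by which they can be set side by side. Windows of 250 bases ending just before the annotated start came from RefSeq on build GRCm38.p6, which is not the GRCm39 build of the counts. Of the 10 genes 7 had an entry. CArG boxes (CC, 6 bases that are each A or T, then GG, which reads the same on both strands) were searched, and also with 5 of the 6 inner bases A or T. Capitals mark the matches found. Acta2 lies on the minus strand at chr19:34255374-34255623, Myl9 on the plus strand at chr2:156775214-156775463, Cnn1 on the plus strand at chr9:22099003-22099252 and Casq2 on the plus strand at chr3:102086165-102086414.
Acta2: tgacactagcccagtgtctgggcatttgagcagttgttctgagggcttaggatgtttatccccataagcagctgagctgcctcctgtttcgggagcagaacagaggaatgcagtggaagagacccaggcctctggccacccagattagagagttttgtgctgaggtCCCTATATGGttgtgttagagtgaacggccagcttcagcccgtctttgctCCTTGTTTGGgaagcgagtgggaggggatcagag
Myl9: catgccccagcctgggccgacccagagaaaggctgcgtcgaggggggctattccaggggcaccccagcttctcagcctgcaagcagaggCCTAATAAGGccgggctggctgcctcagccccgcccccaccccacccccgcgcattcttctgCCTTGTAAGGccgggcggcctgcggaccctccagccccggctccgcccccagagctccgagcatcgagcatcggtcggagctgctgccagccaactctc
Cnn1: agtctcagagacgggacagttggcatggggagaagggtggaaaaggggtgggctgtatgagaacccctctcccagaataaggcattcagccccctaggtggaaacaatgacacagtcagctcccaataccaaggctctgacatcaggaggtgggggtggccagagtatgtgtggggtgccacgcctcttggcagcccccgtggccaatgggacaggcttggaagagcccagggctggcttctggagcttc
Casq2: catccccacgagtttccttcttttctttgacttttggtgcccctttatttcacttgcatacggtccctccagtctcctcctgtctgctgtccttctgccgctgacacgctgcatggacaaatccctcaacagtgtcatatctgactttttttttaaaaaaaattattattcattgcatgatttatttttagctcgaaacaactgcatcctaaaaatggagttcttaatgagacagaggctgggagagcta
Myl9 held a full box, CCTAATAAGG, starting 161 bases before the start, and a second match with 5 of 6 bases, CCTTGTAAGG, 99 bases before it. Acta2 held 2 matches of the looser kind, CCCTATATGG at 84 and CCTTGTTTGG at 34 bases before the start. Cnn1, Casq2, Des, Tpm2 and Mylk held none in this window. Among 32851 promoters of the same length 1.47% held a full box and 8.59% at least 1 looser match, and 0.67% held 2 or more looser matches. A match in letters is a description of the window and not evidence of binding. Mylk and Tpm2, which held none, had folds from Hhip-high to subepithelial-gated cells near those of Acta2 and Myl9, as given below. Tagln, Myh11 and Actg2 had no entry, and a link between matches and folds was not tested.

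The step from Hhip-high to subepithelial-gated cells split the 10 genes into groups. All 10 were at least 1.5-fold higher in Hhip-high cells in both libraries, where 13.4% of all measured genes were so in the Cre and 13.2% in the control library. Hhip-high cells were chosen after values were seen, as the larger cluster with the contractile genes. That all 10 were higher there was thus largely set by that choice, and only the sizes of the folds are described. Cnn1 and Des in both libraries, and Actg2 in the Cre library, were under 10 CPM in subepithelial-gated cells. They counted as measured only through Hhip-high cells, so their direction was largely set by the minimum. Acta2, Tagln, Myl9, Mylk and Tpm2 were 6.25- to 7.48-fold higher in the Cre library and 7.53- to 10.3-fold higher in the control library. Myh11, Cnn1 and Actg2 differed far more, by 47.3- to 277-fold and 46.8- to 278-fold, and Des by 50.1- and 18.0-fold. The folds of Cnn1 and Actg2 rest on few gated cells, and the Cre fold of Des on few Hhip-high cells, as given below. Casq2 differed least, by 1.52- and 2.25-fold. Summed over the 10 genes, the level was 7.94-fold higher in Hhip-high than in subepithelial-gated cells in the Cre library and 10.4-fold higher in the control library.

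**Figure D1:**
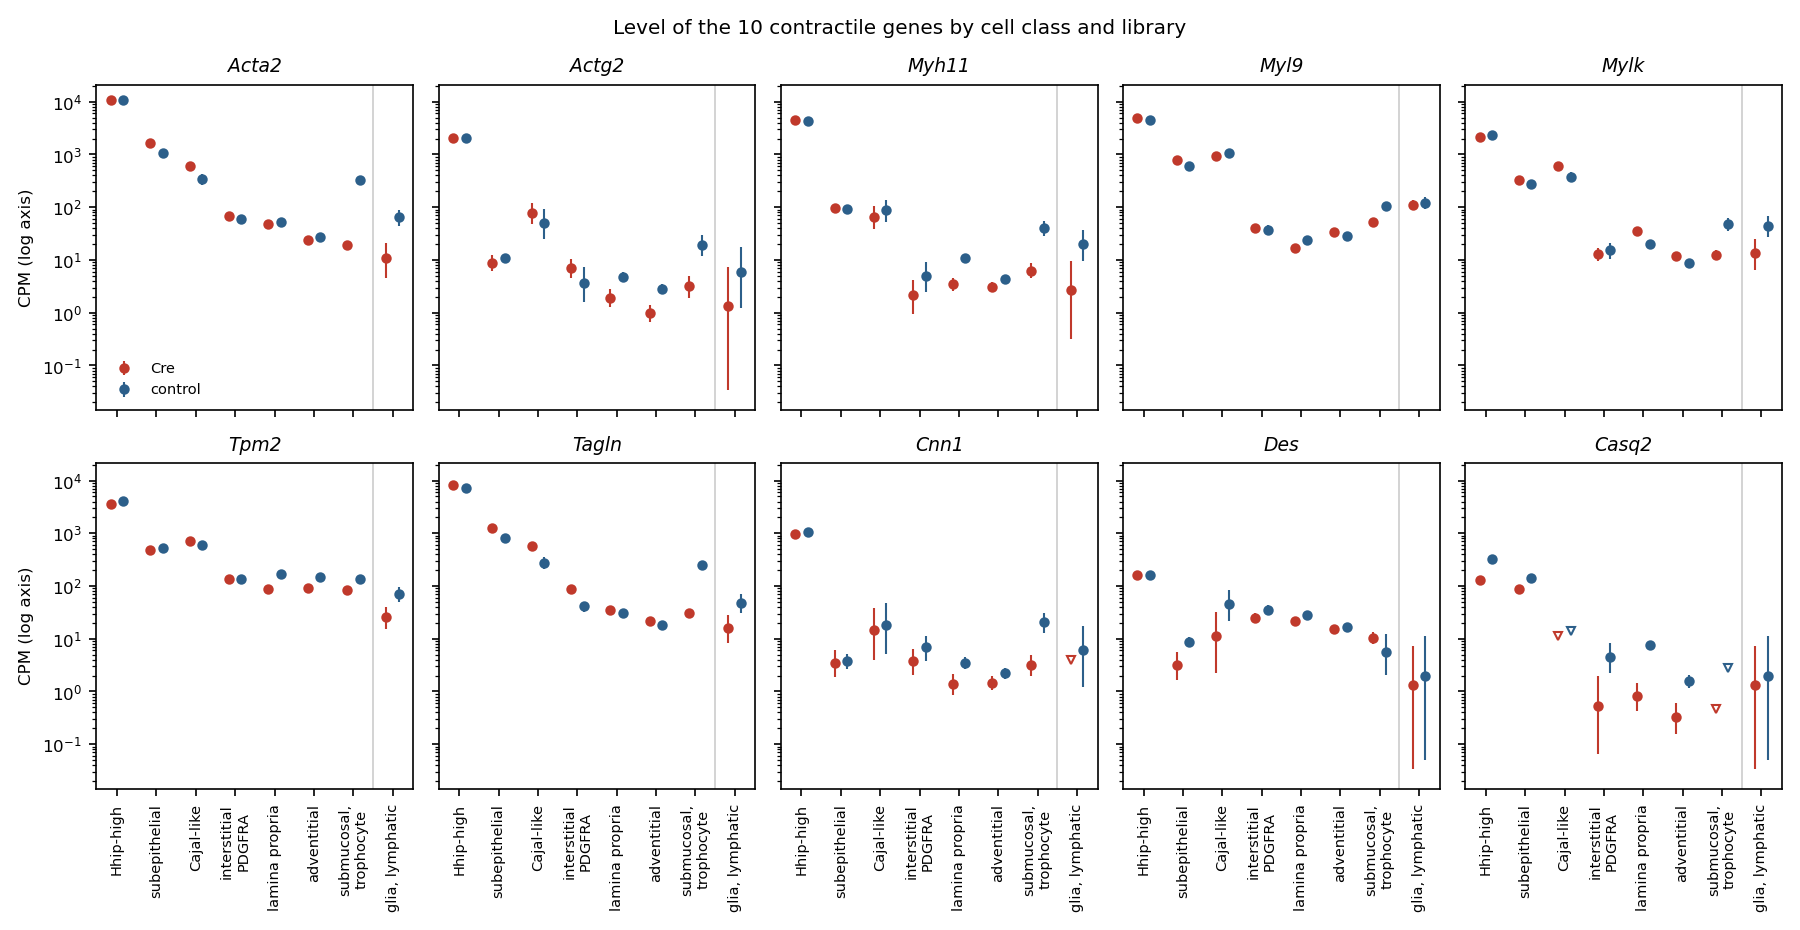
Level of each gene in CPM (log axis) by cell class, with the Cre library on the left and the control library on the right of each pair, and 95% Poisson intervals as bars. Open triangles stand at the limit that a count of 0 allows, and the classes right of the grey line give the level from free RNA and other cell types. Acta2 stood at 10732 and 11026 CPM in Hhip-high cells and at 1665 and 1075 CPM in subepithelial-gated cells.

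Acta2 (ENSMUSG00000035783) encodes the smooth muscle alpha-actin of vascular and visceral muscle and of myofibroblasts. It stood at 10732 CPM (10546 to 10920) in the Cre and 11026 CPM (10929 to 11123) in the control library in Hhip-high cells. Subepithelial-gated cells held 1665 CPM (1624 to 1707) and 1075 CPM (1055 to 1095). Hhip-high cells were thus 6.45-fold above subepithelial-gated cells in the Cre library and 10.3-fold above them in the control library. In lamina propria-gated cells Acta2 was at 47.8 and 52.5 CPM, and in adventitial-gated cells at 23.5 and 27.2 CPM. Against the pooled glia-like and lymphatic endothelium-like cells, which should lack the gene (10.7 and 64.1 CPM), lamina propria-gated cells were 4.47-fold higher (2.26 to 10.4) in the Cre library and 0.818-fold (0.576 to 1.2) in the control library. Of the 32 control UMIs behind that background 23 came from 1 glia-like cell, so the control library gives no firm level for free RNA of Acta2. Actg2 (ENSMUSG00000059430), the gamma-actin of enteric muscle, was at 2065 and 2061 CPM in Hhip-high cells and at 8.93 and 11.1 CPM in subepithelial-gated cells. A single gated cell held 20 of the 33 Cre UMIs of Actg2 and another 71 of the 118 control UMIs. Gated cells with no Nrg1 UMI held Actg2 at 4.75 and 2.045 CPM, so its level in the gate rests on few cells. Of the 2 actins, only Acta2 was well above 10 CPM in subepithelial-gated cells in both libraries.

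Myh11 (ENSMUSG00000018830), the smooth muscle myosin heavy chain, was at 4477 and 4259 CPM in Hhip-high cells. It was at 94.7 CPM in subepithelial-gated cells of the Cre library and 91.1 CPM in those of the control library, and at 3.52 and 11.1 CPM in lamina propria-gated cells. After each cell was thinned to 2000 UMIs, Myh11 had a UMI in 11.7% of Cre and 11.8% of control subepithelial-gated cells, against 0 of 114 Cre glia-like cells, which allows up to 2.63%, and 1.49% of 67 control glia-like cells. The heavy chain thus reached subepithelial-gated cells at a low level that was above the glia-like cells. Myl9 (ENSMUSG00000067818), the regulatory light chain that the kinase phosphorylates, was at 4850 and 4578 CPM in Hhip-high and at 776 and 608 CPM in subepithelial-gated cells. Mylk (ENSMUSG00000022836), the kinase itself, was at 2119 and 2305 CPM in Hhip-high and at 327 and 272 CPM in subepithelial-gated cells. The light chain and its kinase differed 6.25-fold and 6.48-fold between these classes in the Cre library and 7.53-fold and 8.46-fold in the control library. Myl9 was also found in glia-like cells, with a UMI in 15.8% of Cre and 32.8% of control cells after thinning, above the 2.63% and 4.05% of lamina propria-gated cells.

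Tpm2 (ENSMUSG00000028464), the beta chain of tropomyosin, was at 3607 and 4023 CPM in Hhip-high cells and at 482 and 527 CPM in subepithelial-gated cells. Among the measured genes that were higher in subepithelial-gated than in lamina propria-gated cells it had the smallest difference. It was at 86.9 and 166 CPM in lamina propria-gated and at 91.4 and 148 CPM in adventitial-gated cells. Those levels were 3.42-fold (2.18 to 5.71) and 2.37-fold (1.70 to 3.40) above the pooled glia-like and lymphatic endothelium-like cells for lamina propria-gated cells of the Cre and the control library. Tagln (ENSMUSG00000032085), or transgelin, an actin-binding protein of the calponin family, was at 8054 and 7156 CPM in Hhip-high and at 1236 and 821 CPM in subepithelial-gated cells. Cnn1 (ENSMUSG00000001349), or calponin, which inhibits the myosin ATPase, was at 974 and 1041 CPM in Hhip-high cells and at 3.52 and 3.75 CPM in subepithelial-gated cells. Hhip-high cells were 277-fold above subepithelial-gated cells for Cnn1 in the Cre library (161 to 522) and 278-fold above them in the control library (204 to 389). A single cell held 11 of the 13 Cre UMIs and another 26 of the 40 control UMIs of Cnn1 in the gate, so these folds and intervals rest on single cells, and gated cells with no Nrg1 UMI held 0.365 and 0.744 CPM. Of the subepithelial-gated cells 0.604% of the Cre and 0.557% of the control library had a Cnn1 UMI before thinning.

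**Figure D2:**
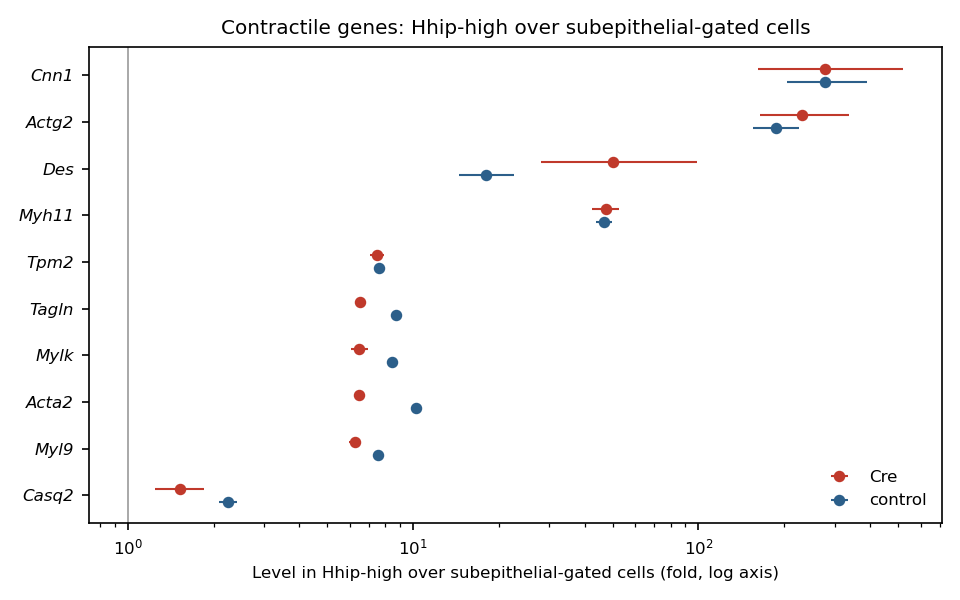
Level in Hhip-high over subepithelial-gated cells as a fold on a log axis for each gene, with the Cre library above the control library in each pair and 95% intervals from counting error as bars. Casq2 lies at 1.52 and 2.25, a group of 5 genes between 6.25 and 10.3, and Cnn1 at 277 and 278.

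Des and Casq2 did not keep the order of the other genes. Des (ENSMUSG00000026208), or desmin, the muscle intermediate filament, was at 163 and 158 CPM in Hhip-high cells. The 10 Hhip-high cells with most Des UMIs held 53.9% of them in the Cre and 14.55% in the control library. A single Cre cell held 37 of the 193 Cre UMIs, so the Cre level and its fold rest on few cells. Subepithelial-gated cells held only 3.25 CPM (12 UMIs) in the Cre and 8.81 CPM (94 UMIs) in the control library. In gated cells of cluster 4 alone Des was at 1.22 and 1.25 CPM, so most of the gate's control level, and the gap between its 50.1- and 18.0-fold differences, came from gated cells outside that cluster. Lamina propria-gated cells held more, 22.0 and 28.4 CPM, and adventitial-gated cells 15.5 and 16.6 CPM. Interstitial PDGFRA-gated cells held the most of the gated classes, 24.6 and 35.4 CPM, and submucosal and trophocyte-gated cells held 10.4 and 5.56 CPM. The interstitial PDGFRA gate is mixed. Over all cells of its Kcnn3 cluster 13 Des was at 18.9 and 27.6 CPM, under the lamina propria-gated levels. Over all cells of cluster 9 Des was at 46.2 and 41.7 CPM. The level in subepithelial-gated over lamina propria-gated cells was 0.147-fold (0.0753 to 0.261) in the Cre and 0.310-fold (0.246 to 0.387) in the control library. After thinning, 4.18% of Cre and 4.77% of control lamina propria-gated cells had a Des UMI, 0.213% and 0.721% of subepithelial-gated cells, and none of 114 and 67 glia-like cells, which allows up to 2.63% and 4.48%. Casq2 (ENSMUSG00000027861), or calsequestrin, which holds calcium in the sarcoplasmic reticulum, was at 132 and 320 CPM in Hhip-high cells and at 86.3 and 142 CPM in subepithelial-gated cells. Lamina propria-gated cells held 0.829 and 7.51 CPM. Casq2 was thus nearest to an equal level in Hhip-high and subepithelial-gated cells while staying low in other fibroblasts.

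From subepithelial-gated to lamina propria-gated cells 8 genes could be measured. Of these 7 were at least 1.5-fold higher and Des alone was lower, in both libraries, where 13.2% of all genes were higher and 8.97% lower in the Cre and 10.5% and 7.05% in the control library. Casq2 in both libraries and Myh11 in the Cre library reached the minimum only through subepithelial-gated cells. Des reached it only through lamina propria-gated cells, so the direction of these genes was largely set by the minimum. Casq2 showed the largest difference in the Cre library, 104-fold (58.8 to 204), and was 18.9-fold higher in the control library. Acta2, Tagln and Myl9 were 34.9-, 35.6- and 45.3-fold higher in the Cre library and 20.5-, 26.5- and 25.5-fold higher in the control library. Mylk was 9.31- and 13.5-fold higher, and Tpm2 5.55- and 3.18-fold higher. Against adventitial-gated cells 7 of 7 measured genes were higher in the Cre library (background 33% of genes) with none lower (9.32%), and 7 of 8 in the control library (20.6%), where Des was lower (7.95%). The same limit holds there for Casq2 and Myh11 in both libraries and for Mylk and Des in the control library, each under 10 CPM in 1 of the 2 classes.

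Per cell, Acta2 was found in nearly all Hhip-high cells and in a part of subepithelial-gated cells. After thinning to 2000 UMIs, Acta2 had a UMI in 99.4% of Cre and 100% of control Hhip-high cells, with a median of 22 and 21 UMIs. Shares in Hhip-high cells were lower for Cnn1 (77.8% and 80.8%), Casq2 (23.4% and 39.4%) and Des (18.7% and 21.4%). In subepithelial-gated cells Acta2 had a UMI in 72.9% (68.7 to 76.9) and 57.7% (55.0 to 60.3), with a median of 2 and 1 UMIs. The Acta2 share was 5.09% and 5.32% in lamina propria-gated cells and 2.53% and 3.38% in adventitial-gated cells, against 2.63% and 2.99% of glia-like cells. Before thinning the share of subepithelial-gated cells was 83.9% and 70.7%, and the median depth was 6787 and 7031 UMIs in these cells and 5056 and 4107 UMIs in glia-like cells. The shares in lamina propria-gated and adventitial-gated cells lay within the intervals of glia-like cells (0.546 to 7.5% in the Cre and 0.364 to 10.4% in the control library). Lamina propria-gated cells were not uniform, and 10 of them held 40.9% of their Acta2 UMIs in the Cre and 37.3% in the control library. Cluster 11, led by Adamdec1, held 15.1% and 9.65% of these gated cells. Over all its cells it was at 201 and 281 CPM of Acta2 and at 204 and 215 CPM of Tagln. By level, adventitial-gated cells were 2.2-fold (1.11 to 5.11) the pooled glia-like and lymphatic endothelium-like cells in the Cre library and 0.424-fold in the control library, where 1 cell carried most of that background.

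**Figure D3:**
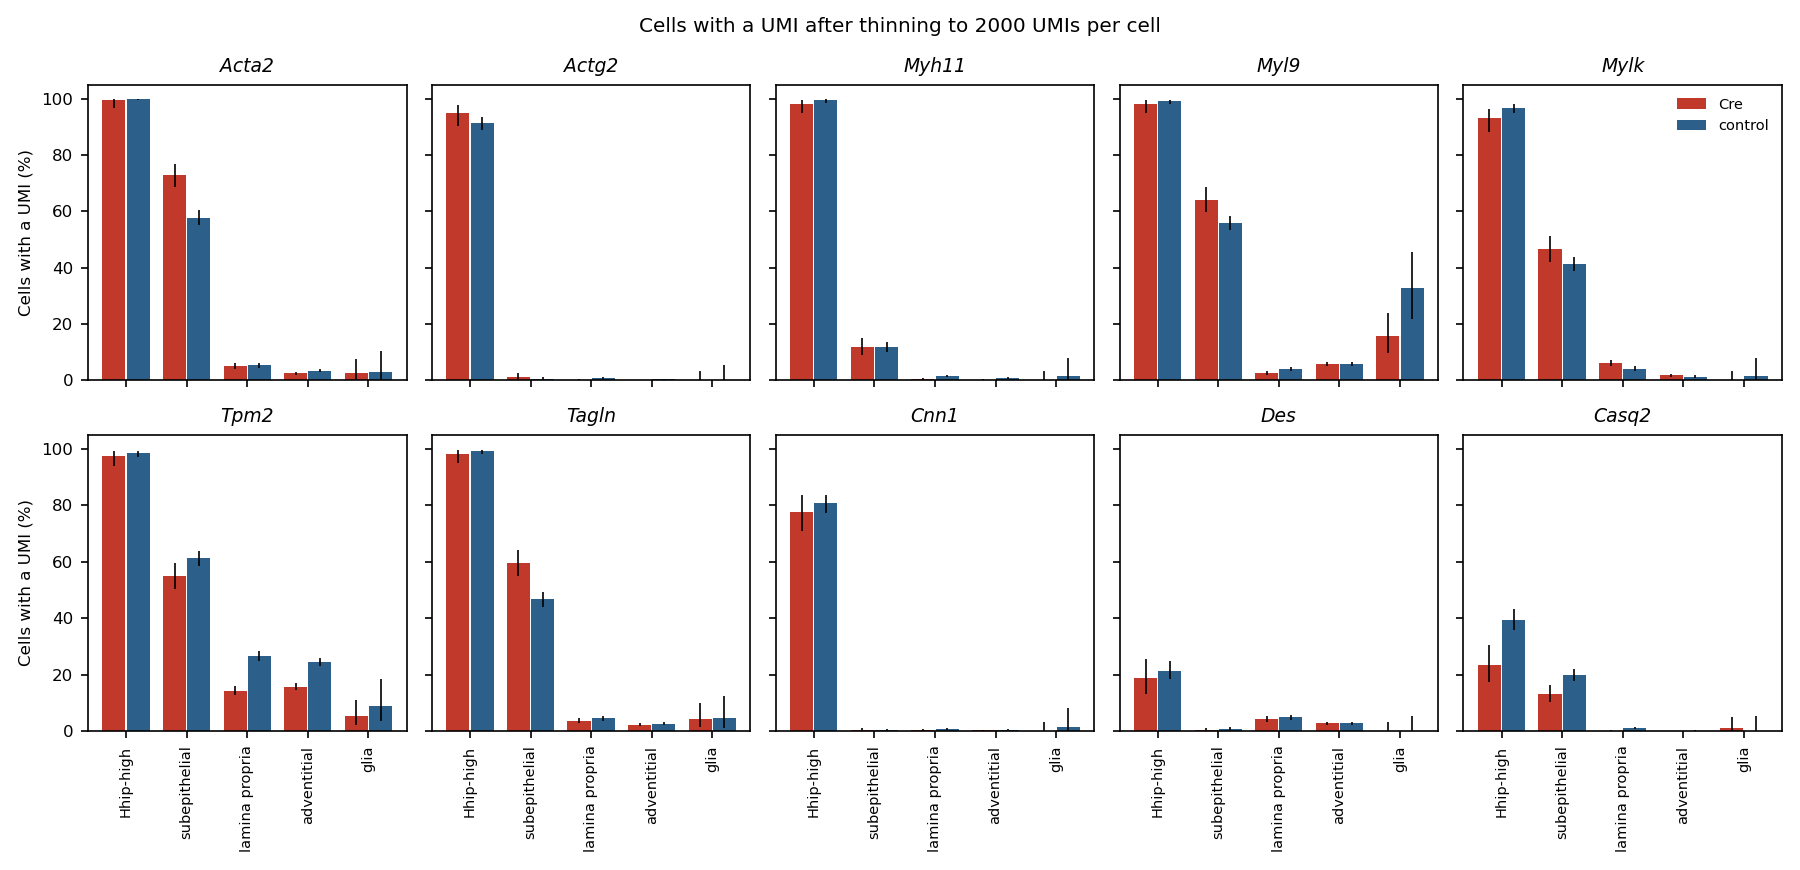
Share of cells with at least 1 UMI of each gene after thinning to 2000 UMIs per cell, for 5 classes, with the Cre bar left of the control bar and 95% Clopper-Pearson intervals. Acta2 reaches 72.9% and 57.7% of subepithelial-gated cells, while Cnn1 reaches 0.213% and 0.288%.

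Genes were found in the same subepithelial-gated cells. Among cells with an Acta2 UMI after thinning, 73.4% of 342 Cre and 68.1% of 800 control cells also had Tagln, against 22.8% of 127 and 17.7% of 587 cells without Acta2. For Myl9 the shares were 76.6% and 78.0% with Acta2, against 30.7% and 25.7% without. For Tpm2 they were 62.9% and 72.8%, against 33.9% and 45.7%. Mylk differed less, with 50.9% and 51.9% against 35.4% and 26.9%. Casq2 behaved otherwise in the Cre library, where it had a UMI in 12.3% of cells with and 15% of cells without Acta2, while the control library had 24.5% and 13.5%.

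Cells like interstitial cells of Cajal, pacemakers of the gut named from Kit, Ano1, Etv1 and Prkcq, also held contractile transcripts. They were few, 58 Cre and 36 control cells. Acta2 was at 613 and 337 CPM, Tagln at 576 and 272 CPM, Myl9 at 919 and 1062 CPM, Mylk at 594 and 374 CPM and Tpm2 at 712 and 609 CPM. The signal of Acta2 was carried by few cells, since the 10 cells with most UMIs held 91.0% of them in the Cre and 90.4% in the control library. Casq2 had 0 UMIs in both, which allows up to 11.1 and 13.9 CPM. A further unnamed cluster of 14 Cre and 14 control cells, led by Kcnip4, Dpp10 and Pcp4 and with Kit among its top genes, held Acta2 at 1460 and 1284 CPM, Myh11 at 453 and 689 CPM, Actg2 at 496 and 552 CPM and Cnn1 at 71.9 and 100.4 CPM. For Myh11, Actg2 and Cnn1 these levels lay between those of Hhip-high cells and every gated fibroblast class, and Casq2 had 0 UMIs.

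Other genes of the contractile apparatus, 47 in 5 lists that hold none of the 10, were set beside them. Of these 42 reached 10 CPM in Hhip-high cells, 23 were at least 1.5-fold higher there than in subepithelial-gated cells in both libraries and 6 were at least as much lower (background 13.4% and 13.2% of genes higher, 22% and 18.1% lower). The 42 were chosen by their level in Hhip-high cells alone, which favours genes that are higher there. The background took the mean of both classes, so the counts and the background are not strictly comparable. In the list of actins, myosins and tropomyosins 5 of 11 were higher and 6 lower. The cytoplasmic actins were among the higher ones, Actb by 1.87- and 2.25-fold and Actg1 by 1.72- and 1.95-fold, as was the essential light chain Myl6 by 3.5- and 3.76-fold. The 6 that were lower were the light chains Myl12a and Myl12b, the non-muscle myosin heavy chains Myh9 and Myh10 and the tropomyosins Tpm3 and Tpm4. Myh9 was at 238 and 198 CPM in Hhip-high against 680 and 627 CPM in subepithelial-gated cells. Myh10 was at 37.1 and 28.4 CPM against 136 and 113 CPM. Tpm1, the alpha chain of tropomyosin, was 3.54- and 4.2-fold higher in Hhip-high cells.

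Among regulators of contraction 6 of 12 were higher in Hhip-high cells and none lower. Lmod1, the leiomodin that nucleates actin filaments in smooth muscle, was at 664 and 665 CPM in Hhip-high cells and at 3.25 and 2.25 CPM in subepithelial-gated cells. Ppp1r12b, a targeting subunit of myosin phosphatase, was 5.62- and 5.59-fold higher, and Ppp1r14a, which inhibits that phosphatase, 3.12- and 3.11-fold. Rhoa and Rock2, which act upstream of it, did not reach 1.5-fold either way, at 0.871 and 0.868 for Rhoa and 0.730 and 0.967 for Rock2. In calcium handling 4 of 8 were higher, led by the potassium channel Kcnma1 (562 and 375 CPM against 14.9 and 3.19 CPM) and the calcium channel Cacna1c (323 and 299 CPM against 20.6 and 18.4 CPM). The reticulum calcium pump Atp2a2 was near equal, at 0.976 and 1.15-fold. Of the anchoring genes 6 of 7 were higher, with the actin crosslinker Flna 6.45- and 8.06-fold higher, while Vim was 1.48-fold higher in the Cre library and 0.885-fold in the control library. In the list of transcription factors 2 of 4 were higher. Myocd, the myocardin coactivator, was at 261 and 231 CPM in Hhip-high cells and at 1.35 and 1.69 CPM in subepithelial-gated cells. Srf, serum response factor, was at 51.4 and 72.0 CPM against 31.7 and 29.0 CPM, and its other coactivators Mrtfa and Mrtfb were within 1.5-fold.

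**Figure D4:**
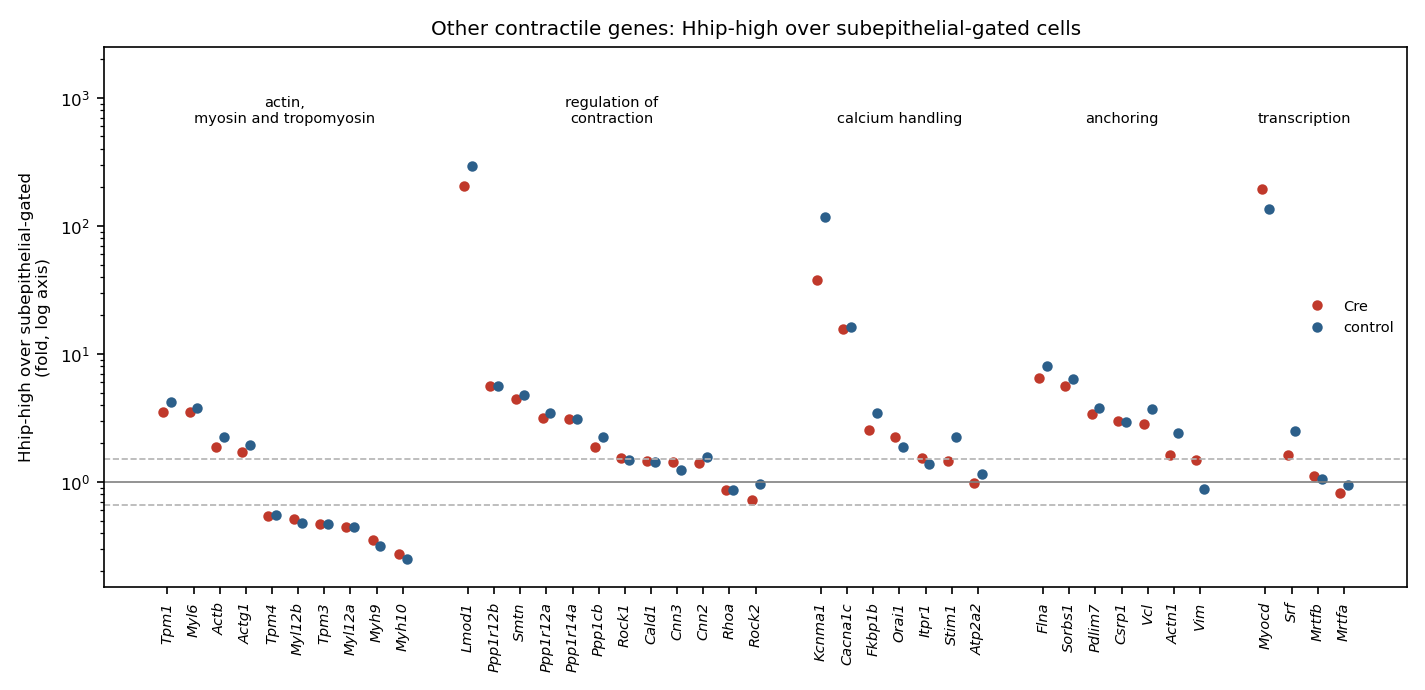
Level in Hhip-high over subepithelial-gated cells (fold, log axis) for other contractile genes that reached 10 CPM in Hhip-high cells, by list, with the Cre point left of the control point and dashed lines at 1.5-fold either way. Actc1, with no UMI in Cre subepithelial-gated cells, and a gene not reported here are not drawn. Myocd lies at 193 and 137, and Myh10 at 0.273 and 0.250.

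Genes outside every list with a pattern most like the mean of the 10 were Dstn, Tgfb1i1, Pbxip1, Rgs10 and Cap2. Likeness was the Pearson correlation of log2 CPM over 30 points, each a cluster in 1 library (15 clusters, with at least 50 cells per library), and it ranged from 0.90 for Cap2 to 0.93 for Dstn. The points share their 2 libraries and so are not independent. Dstn, which severs actin filaments, was at 1674 and 2139 CPM in Hhip-high and at 398 and 499 CPM in subepithelial-gated cells. Of the 10 genes, each of which is part of that mean, Acta2 followed it most closely (0.97) and Des least (0.45).

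Between the libraries, Hhip-high cells differed little in contractile genes. Acta2 was at 0.973 (0.955 to 0.992) of the control level, Actg2 at 1.0, Myl9 at 1.06, Myh11 at 1.05 and Mylk at 0.919. Cnn1 was at 0.935, Tpm2 at 0.897, Tagln at 1.13 and Des, with much of its Cre level in few cells, at 1.03. These 9 genes thus lay within 1.5-fold, and the median log2 ratio of the 10 was -0.02, beside 0.01 over all measured genes. Casq2 alone passed it, at 132 CPM (156 UMIs) in the Cre and 320 CPM (1445 UMIs) in the control library, a ratio of 0.411 (0.346 to 0.485). Over all genes measured in these cells, 7.66% passed 1.5-fold upwards and 7.09% downwards. After thinning 23.4% (17.3 to 30.5) of Cre and 39.4% (35.6 to 43.3) of control Hhip-high cells had a Casq2 UMI. Other genes of these cells moved too: Hhip was at 1269 and 2117 CPM, Itga8 at 97.0 and 233 CPM, and the sum of 9 fibroblast markers at 4028 and 5732 CPM. Their part in the difference of Casq2 was not tested. A finer clustering split off 2 small groups, 1 led by Rgs5 and without a Casq2 UMI (13 Cre and 60 control cells) and 1 shallow group (22 and 45 cells). Without their cells the Casq2 ratio was 0.410, at 136 and 331 CPM. Among the other calcium genes Itpr1, the receptor that releases calcium from the reticulum, was at 306 and 196 CPM, a ratio of 1.56 (1.38 to 1.77), and Kcnma1 at 562 and 375 CPM, a ratio of 1.5 (1.37 to 1.64). None of the 42 other contractile genes measured in these cells was at least 1.5-fold lower.

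In subepithelial-gated cells Acta2 was at 1665 CPM in the Cre and 1075 CPM in the control library, a ratio of 1.55 (1.5 to 1.6), and Tagln at 1236 and 821 CPM, a ratio of 1.51 (1.45 to 1.56). Casq2 was at 86.3 and 142 CPM, a ratio of 0.607 (0.536 to 0.685). Thus 2 of 7 measured genes were higher and 1 was lower, where 5.86% and 4.46% of all genes were so. Myl9 (1.28), Mylk (1.2), Myh11 (1.04) and Tpm2 (0.914) were within 1.5-fold. The median log2 ratio of the 7 genes was 0.26, beside 0.06 over all measured genes. Actg2, Cnn1 and Des did not reach a mean of 10 CPM here. Among the other contractile genes measured here, the intermediate filament gene Vim was lower (1270 and 2063 CPM, ratio 0.616), and none was higher.

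The ratios of Acta2 and Tagln differed between subsets of the gated cells. Control cells of the gate included 196 of cluster 8, led by Cd36 and Hcar2, while the Cre cells included 3. In gated cells of cluster 4 alone Acta2 was at 1852 and 1426 CPM, a ratio of 1.30 (1.26 to 1.34), and Tagln at 1380 and 1091 CPM, a ratio of 1.27 (1.22 to 1.31). At a finer resolution a subcluster led by Sox6 and Wif1 held 424 Cre and 890 control cells, and there Acta2 was at 1886 and 1634 CPM, a ratio of 1.15 (1.12 to 1.19), and Tagln at 1414 and 1389 CPM, a ratio of 1.02. A second subcluster, led by Ednrb and Nrg1, held 26 and 280 cells, with Acta2 at 983 and 924 CPM and Tagln at 505 and 407 CPM. Acta2 and Tagln were lower in it than in the first subcluster in both libraries, and it held more control than Cre cells. The part of cell make-up in the ratios of the whole gate was not tested. Nrg1, a growth factor of these cells that was itself at 112 and 360 CPM in the gate, divides the gate further. In gated cells with no Nrg1 UMI (382 and 825) the ratio was 1.30 for Acta2 and 1.09 for Tagln, and in those with a Nrg1 UMI (115 and 610) it was 1.77 and 2.45. Casq2 stayed lower in each of these sets, with ratios from 0.384 (0.218 to 0.629) in the Nrg1 subcluster to 0.653 in cells with a Nrg1 UMI.

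**Figure D5:**
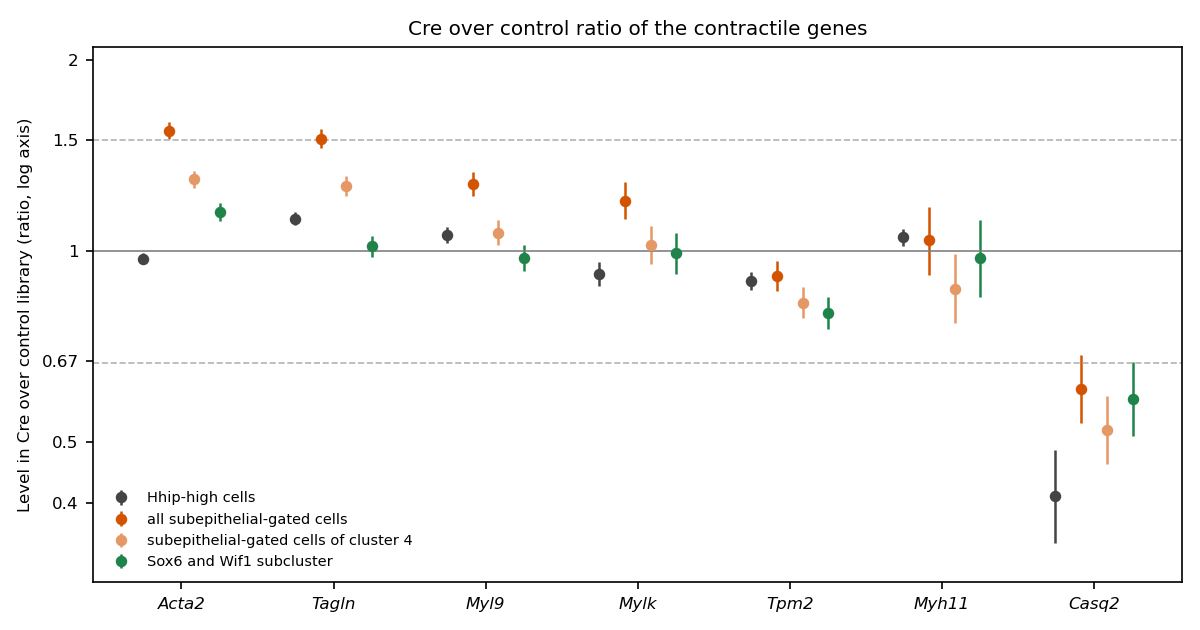
Ratio of the Cre over the control library (log axis) for 7 genes in Hhip-high cells, in all subepithelial-gated cells, in those of cluster 4 and in the Sox6 and Wif1 subcluster, with 95% intervals from counting error. Solid and dashed grey lines mark equal levels and 1.5-fold either way. Acta2 is at 1.55 in all gated cells and at 1.15 in the Sox6 and Wif1 subcluster, while Casq2 is lower in the Cre library in all 4 sets.

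Tpm2 was lower in the Cre library in lamina propria-gated and adventitial-gated cells. The same held for fibroblast-like cells outside every gate (ratio 0.576). It also held for submucosal and trophocyte-gated cells (0.609, or 0.85 without cells of cluster 11). The values of Tpm2 in the first 2 classes follow. Tpm2 was at 86.9 CPM (1259 UMIs) in the Cre and 166 CPM (2961 UMIs) in the control library in lamina propria-gated cells, a ratio of 0.524 (0.490 to 0.559). In adventitial-gated cells it was at 91.4 and 148 CPM, a ratio of 0.618 (0.589 to 0.649). After thinning, 14.3% of Cre and 26.6% of control lamina propria-gated cells and 15.6% and 24.5% of adventitial-gated cells had a Tpm2 UMI. Mylk was higher in lamina propria-gated cells, at 35.2 and 20.2 CPM, a ratio of 1.74 (1.52 to 2.00), with a UMI in 6.22% and 4.14% of thinned cells. So 1 gene was higher and 1 lower of the 6 measured in lamina propria-gated cells (5.04% and 3.26% of all genes) and 1 was lower of the 6 in adventitial-gated cells (3.35% of all genes, with 4.1% higher). Medians over the 6 genes were -0.24 and 0.08 on the log2 scale, beside 0.03 and -0.06 over all genes. The clusters that hold these classes differ between the libraries, so library and cell make-up cannot be told apart in these classes. Casq2 was under 10 CPM in both classes, at 0.829 and 7.51 CPM in lamina propria-gated and 0.333 and 1.57 CPM in adventitial-gated cells.

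Interstitial PDGFRA-gated cells had 1 gene higher of 6 measured, Tagln at 88.0 and 40.9 CPM (5.25% of all genes higher, 5.02% lower). The 10 cells with most Tagln UMIs held 51.8% of them in the Cre and 55.1% in the control library, and 7.96% and 7.04% of thinned cells had a UMI. The clusters in this gate differ in share between the libraries. Over all cells of the Kcnn3 cluster 13 Tagln was at 154.5 and 121 CPM, and over those of cluster 9 at 57.55 and 75.7 CPM. The part of cell make-up in the ratio of the gate was not tested.

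In submucosal and trophocyte-gated cells the control library had the higher level for all 8 measured genes (7.27% of all genes were as much lower in the Cre library, 6.17% higher). Cnn1 (3.16 and 20.4 CPM), Actg2 (3.16 and 19.5 CPM) and Myh11 (6.31 and 39.9 CPM) reached the minimum only through the control library. Their place in this count was thus largely set by the minimum. Acta2 was at 19.1 CPM (121 UMIs in 832 cells) in the Cre and 322 CPM (347 UMIs in 208 cells) in the control library, and Tagln at 30.5 and 249 CPM. The signal was in few cells, since the 10 cells with most UMIs held 66.9% of Acta2 in the Cre and 93.7% in the control library. Without cells of cluster 11 (829 Cre and 196 control cells left) Acta2 was at 15.8 and 107 CPM, a ratio of 0.147 (0.111 to 0.195), Tagln at 27.1 and 77.1 CPM, a ratio of 0.351, and Myl9 at 52.4 and 43.9 CPM, a ratio of 1.19. Thinned shares with an Acta2 UMI were 2.29% and 8.38%. The control level of Acta2 in this class thus rested on 10 cells for most of its UMIs.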

How the data were processed

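Droplet libraries (10x 5' chemistry) of sorted colon stromal cells were deposited by the authors as raw UMI counts per gene and cell, made with Cell Ranger 8.0.1 on GRCm39 per the submitters' processing notes. No per-sample column was left unused (0). Barcodes under 500 genes or over 10% mitochondrial UMIs were dropped, as were Scrublet doublets (111 Cre and 393 control cells). Both libraries were clustered together without integration in scanpy 1.11.5 (2000 variable genes, 30 components, 15 neighbours, leidenalg 0.10.2, resolution 1), with python 3.11.15, numpy 2.4.6, scipy 1.17.1, pandas 2.3.3 and matplotlib 3.10.9. The 10 genes, the 47 other contractile genes and interferon, antigen presentation, mitochondrial, ribosomal, antigen receptor, haemoglobin, sex-linked, stress and cell cycle genes took no part in clustering, all but the contractile sets by patterns written with the data in view. A cluster took a type's name with at least 3 of its markers among its top 30 genes. A fibroblast-like cell entered a gate with at least 2 of its markers and the highest share of that gate's list.

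The cluster planned as smooth muscle-like met no name under this rule, so Hhip-high cells stand in for it, a choice made after values were seen, like the subclusters and 5 of the alternatives. The 10 genes and all lists were chosen with earlier results of these data known.

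UMIs were summed per class and library, with exact Poisson intervals for levels, exact binomial intervals for ratios and Clopper-Pearson intervals for shares (95%). Log2 ratios had 1 CPM added. A count of 0 was given a limit of 3 counts. Shares were compared after thinning each cell to 2000 UMIs, which left out 4 Cre and 43 control Hhip-high, 28 and 48 subepithelial-gated, 96 and 129 lamina propria-gated, 134 and 341 adventitial-gated and 9 and 12 glia-like cells. Genes named were all 10 members, the 2 highest, 2 lowest and 2 most abundant of each other list, and the 5 most alike in pattern, and further genes of the lists were named after their values were seen. The ratio calculation was tested on simulated data. Alternatives planned numbered 14. Values of 1 gene of the other lists are not reported here.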

Additional observations from a re-analysis of the deposited data

Results flagged for a closer look

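Several ratios between the libraries differed in direction or size from those in Hhip-high cells, and the difference between classes was not tested, since each genotype has 1 library. On the log2 scale Acta2 was at 0.631 in subepithelial-gated cells and -4.0 in submucosal and trophocyte-gated cells, beside -0.04 in Hhip-high cells. Tagln was at 0.59 in subepithelial-gated, 1.09 in interstitial PDGFRA-gated and -2.99 in submucosal and trophocyte-gated cells, beside 0.17 in Hhip-high cells. Mylk was at 0.771 in lamina propria-gated and -1.85 in submucosal and trophocyte-gated cells, beside -0.12 in Hhip-high cells. In the submucosal and trophocyte gate, without cells of cluster 11, the values were -2.69 for Acta2, -1.48 for Tagln and -0.87 for Mylk.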

How the results depend on the processing

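No paired analysis was possible because each genotype has 1 library and no test was made. The median log2 ratio in Hhip-high cells was -0.02 and became 0.053 with doublets kept. In subepithelial-gated cells it was 0.26 and became -0.089 with classes from named clusters, 0.026 with Bmp7 left out of the gate, 0.39 with contractile genes among the variable genes, 0.16 at resolution 2, 0.16 with contractile genes left out of the total, 0.15 with each cell weighing alike, 0.45 with free RNA subtracted and -0.0084 with no CPM minimum. In lamina propria-gated cells it was -0.24 and became -0.48 with free RNA subtracted and -0.69 with no minimum. In adventitial-gated cells it was 0.08 and became 0.78 with named clusters, -0.15 at resolution 2, -0.16 with each cell weighing alike, -0.14 with free RNA subtracted and -0.29 with no minimum. The summed fold of Hhip-high over subepithelial-gated cells, 7.94 in the Cre and 10.4 in the control library, was 7.26 and 8.07 with named clusters, 8.19 and 9.76 without Bmp7, 7.76 and 10.2 at resolution 0.5, 7.73 and 9.61 with doublets kept, 8.38 and 10.97 with contractile genes left out of the total, 8.58 and 9.91 with each cell weighing alike, and 8.22 and 11.5 with free RNA subtracted. It was 7.76 in the Cre library with 3 gate markers and 10.6 in the control library with contractile genes among the variable genes. The cause of these shifts was not tested. Of 273 values of single genes under alternatives 215 moved by less than their interval, 58 moved more and 0 changed sign after a call. On the log2 scale Casq2 stayed between -1.29 and -1.13 in Hhip-high and between -0.95 and -0.61 in subepithelial-gated cells, while Acta2 ranged from 0.38 to 0.83 and Tagln from 0.12 to 1.29 in subepithelial-gated cells. These log2 ranges cover the alternatives and not the finer subclusters. Put on the log2 scale, the ratios of Acta2 and Tagln in the Sox6 and Wif1 subcluster (1.15 and 1.02 as plain ratios) lay outside them. The same held for Casq2 in the Nrg1 subcluster (0.384 as a plain ratio). Counts were low for Cnn1, Actg2 and Des in subepithelial-gated cells, with 13, 33 and 12 UMIs in the Cre and 40, 118 and 94 in the control library.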
